A study of Homo sapiens with 16 samples.

Results

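The genes described here are 9 nuclear receptor coregulators and genes tied to glucocorticoid resistance in leukaemia, namely NCOA1, NCOA2, NCOA3, NCOR1, CREBBP, EP300, TBL1XR1, BTG1 and NSD2. They were chosen by name, and a gene was taken as measured where a probe set of the array was annotated to it and to no other gene. This gave 7 measured genes with 34 of the 44988 probe sets that name 1 gene, and NCOA3 and NCOR1 were not analysed here. The brightest probe set over the 16 arrays stood for each gene, so the 7 genes were tested among 18132.

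Expression was measured on 16 Affymetrix PrimeView arrays of Nalm6, a human cell line of B-cell precursor leukaemia. The 4 groups, with 4 arrays each, were cells labelled as carrying active, overexpressed CASP1 after 24 hours of prednisolone, the same cells untreated, control cells after 24 hours of prednisolone, and control cells untreated. CASP1 encodes the caspase that matures interleukin 1 beta. Prednisolone is a synthetic glucocorticoid, and part of the labels give its name as prednisone. The sources used here do not give the dose, the vector, its promoter, what the control cells carry or whether either line is 1 clone. The series title ties glucocorticoid resistance of leukaemia cells to cleavage of the receptor by CASP1.

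The glucocorticoid receptor is a transcription factor that turns genes on or off through partner proteins. The p160 coactivators (NCOA1, NCOA2 and NCOA3) bind the hormone-loaded receptor and bring in the acetyltransferases CREBBP and EP300, which acetylate histones near the target gene. The NCoR complex, built on NCOR1 with TBL1XR1 as a subunit, recruits histone deacetylase and dampens transcription. In relapsed B-cell precursor leukaemia, mutations of CREBBP and NSD2 and deletions of BTG1 and TBL1XR1 have been linked to a poor response to glucocorticoids. BTG1 is an antiproliferative protein that binds the deadenylase complex and the methyltransferase PRMT1, and NSD2 is a histone methyltransferase.

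Array signals are log2 values and are given on that scale throughout, as are differences between groups, each taken as the first-named group minus the second. The cells carried the markers of their labelled type, since all 11 measured B-cell precursor markers had mean signals above the array medians, from 6.69 for CD79A to 12.75 for VPREB1, while 0 of 6 T-cell, 0 of 7 myeloid and 1 of 3 erythroid markers did (ALAS2, mean 5.07). The mean of the B-cell precursor markers lay between 10.08 and 10.45 on arrays of prednisolone-treated cells labelled CASP1, 10.54 and 10.62 in the same cells untreated, 10.46 and 10.52 in treated control cells, and 10.51 and 10.72 in untreated control cells. Of these 11 markers, 3 fell with prednisolone in cells labelled CASP1 (MME, DNTT and BLNK) and 3 in control cells (CD22, IGLL1 and BLNK). These are calls at an adjusted p under 0.05, and 3.35% and 8.43% of all genes fell. Under prednisolone 2, and untreated 3, were lower in cells labelled CASP1 than in control cells, beside 8.52% and 8.2% of all genes. The part of these markers in the results was not tested. CASP1 itself went against its label, with signals of 5.45 to 6.05 in untreated cells labelled CASP1 and 7.60 to 7.95 in untreated control cells, so directions between the lines follow the labels only. Replicate 1 of each group stood apart, as the deviations of its 4 arrays from their group means correlated at 0.19 to 0.51 across genes, against -0.12 to 0.26 for the other replicate numbers. Calls of the members are therefore given with and without these 4 arrays, and those of other genes where the call ended or the difference moved by over 1.5 times.

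In control cells, 4 of the 7 genes changed with prednisolone at an adjusted p under 0.05 (limma, Benjamini-Hochberg over all genes), against 14.2% of all genes tested. BTG1, NCOA1 and CREBBP rose, where 5.73% of all genes rose, and NSD2 fell, where 8.43% fell. In cells labelled CASP1, BTG1 rose and no other member was called, against 6.34% of all genes called, 2.99% higher and 3.35% lower. The median difference over the 7 genes was 0.06 in cells labelled CASP1 and 0.38 in control cells, while that over all genes was 0.02 and -0.01. In these bulk samples a lower signal from fewer cells of a type and one from less RNA per cell cannot be told apart.

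**Figure D1:**
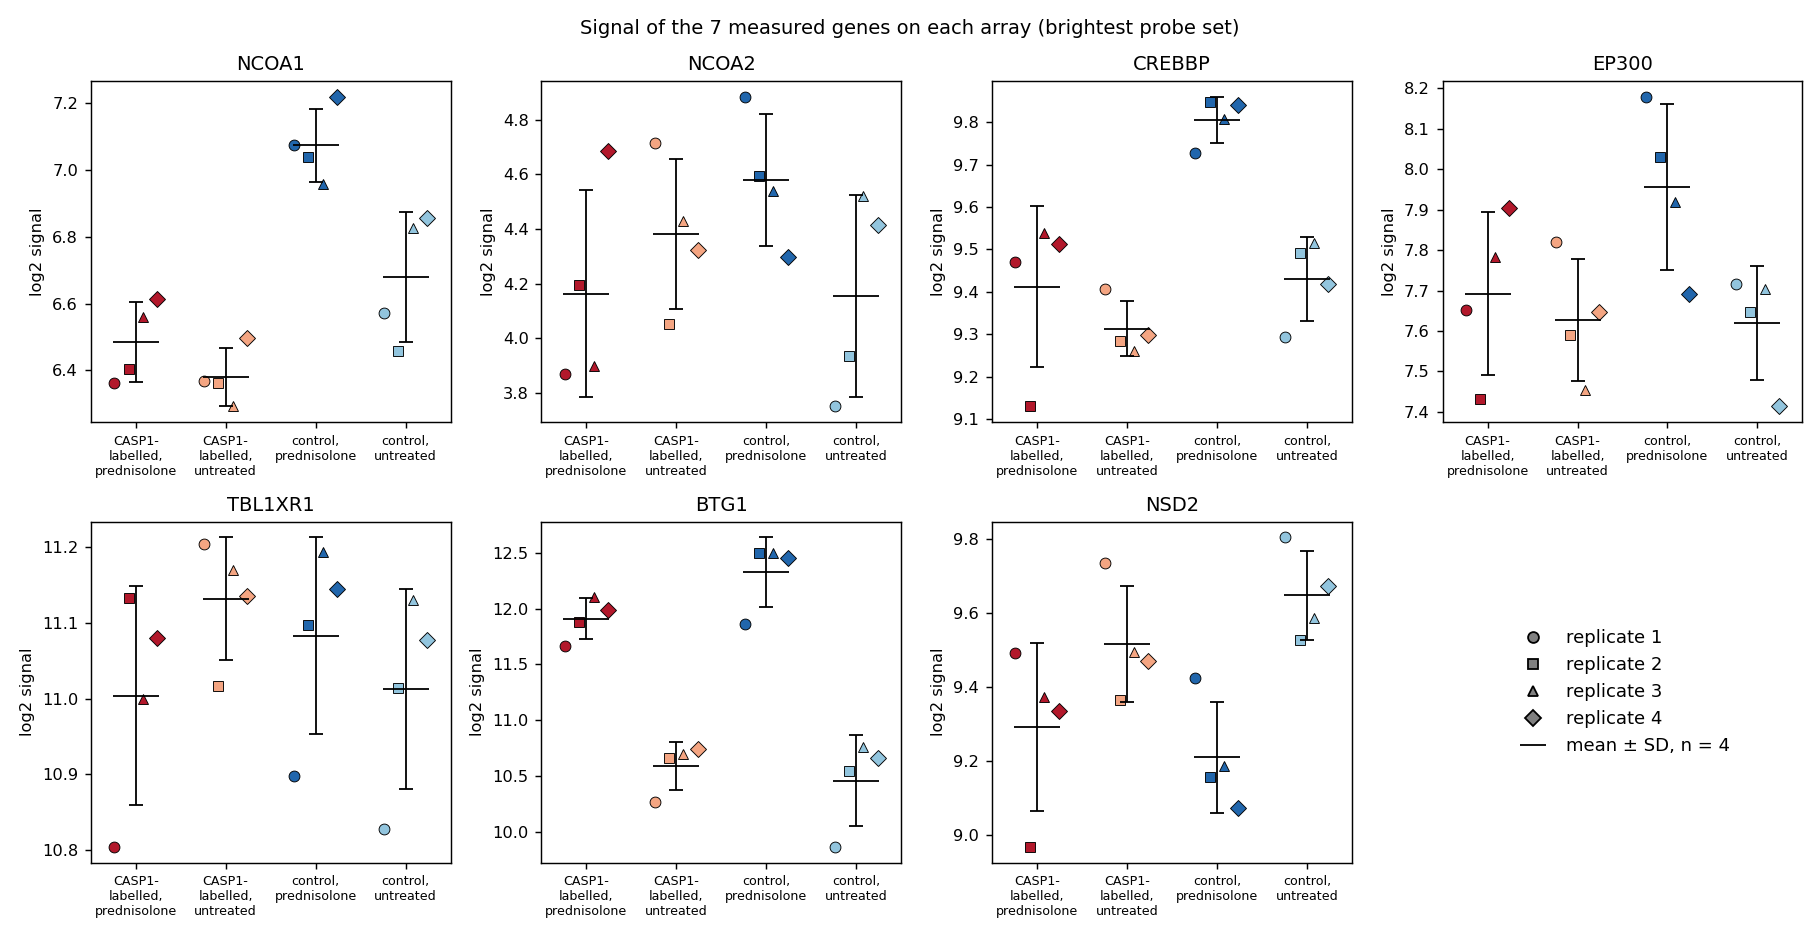
Log2 signal of the brightest probe set of each measured gene (vertical axes, each with its own range and not starting at 0) on each of the 16 arrays, with the 4 groups side by side, the replicate number as the marker shape, and the mean ± SD (n = 4) in black. BTG1 separates both prednisolone groups from both untreated groups, and NCOA1 and CREBBP are highest in prednisolone-treated control cells.

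BTG1 and NSD2, which moved in opposite directions in control cells, are shown first by the sequence before their starts. The 250 bases before the RefSeq start of each gene (GRCh38.p14) are printed in the direction of the gene, with matches to any of 6 searched motifs in capitals. BTG1 lies on chromosome 12 and its window is chr12:92145847-92146096 on the minus strand. The NSD2 window is chr4:1871143-1871392 on the plus strand.
BTG1: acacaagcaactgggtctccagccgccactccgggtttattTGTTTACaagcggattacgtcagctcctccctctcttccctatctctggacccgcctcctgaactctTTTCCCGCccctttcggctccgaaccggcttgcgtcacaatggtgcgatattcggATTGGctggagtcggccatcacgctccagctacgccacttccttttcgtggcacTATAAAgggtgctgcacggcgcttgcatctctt
NSD2: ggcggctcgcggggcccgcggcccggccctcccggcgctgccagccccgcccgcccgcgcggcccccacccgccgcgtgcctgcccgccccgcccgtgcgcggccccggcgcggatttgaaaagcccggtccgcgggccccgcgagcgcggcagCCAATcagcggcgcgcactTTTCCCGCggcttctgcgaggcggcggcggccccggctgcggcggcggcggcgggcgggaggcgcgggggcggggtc

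The motifs were the glucocorticoid response element (AGAACA and TGTTCT with any 3 bases between), the forkhead core GTAAACA, the cyclic AMP response element TGACGTCA, the E2F sequence TTTCCCGC, CCAAT and TATAAA, each on both strands, and the matches printed do not overlap. The BTG1 window held the forkhead core on the other strand (printed as TGTTTAC) 203 to 209 bases before the start and the E2F sequence 135 to 142 bases before it. It also held CCAAT on the other strand (printed as ATTGG) and TATAAA at 28 to 33 bases. The NSD2 window held the E2F sequence at 70 to 77 bases and CCAAT. Of all 35116 windows of this length, 2.98% held the forkhead core, 1.39% the E2F sequence, 32.0% CCAAT, 10.7% TATAAA and 0.00285%, or 1 window, the full response element. In the table, 8 of the 9 genes had a window, with 13 starts in all, and none of these 13 held the response element or the cyclic AMP response element within these 250 bases. The match of the E2F sequence in both windows, beside opposite changes in signal, is a description of letters only.

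BTG1 had the largest change of the 7 genes in both lines. Its signal was 11.67, 11.88, 12.11 and 11.99 in prednisolone-treated cells labelled CASP1 (replicates 1 to 4) and 10.27, 10.66, 10.69 and 10.74 in the same cells untreated. It was 11.86, 12.50, 12.50 and 12.45 in treated control cells and 9.86, 10.54, 10.76 and 10.66 in untreated control cells. All 8 treated arrays were above all 8 untreated arrays, and replicate 1 was the lowest array in each of the 4 groups. The rise was 1.32 (SE 0.18, 2.50-fold, n = 4, adjusted p = 0.00012) in cells labelled CASP1 and 1.87 (SE 0.18, 3.66-fold, adjusted p = 9.5e-07) in control cells. By size it stood at place 85 among the 542 risers in cells labelled CASP1 and at place 73 among the 1039 risers in control cells.

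All 3 BTG1 probe sets rose in both lines, by 0.93 to 1.40 in cells labelled CASP1 and by 1.30 to 2.15 in control cells. Background among probe sets was 2.35% higher in cells labelled CASP1 and 5.23% higher in control cells. One of the 3 had a mean signal of only 3.44, against 10.77 and 11.32 for the others, and was called in the same direction. Without the 4 arrays of replicate 1 the rise was 1.29 in cells labelled CASP1 (adjusted p = 9.6e-08, with 5.77% of all genes called higher) and 1.83 in control cells (adjusted p = 1.6e-09, with 8.8%). The 2 arrays of replicate 1 of each line differed by 1.40 in cells labelled CASP1 and by 2.0 in control cells.

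The size of the BTG1 response was then compared between the lines. Taken as cells labelled CASP1 minus control cells, the responses differed by -0.55 (95% interval -1.10 to -0.01, adjusted p = 0.48). In limma 0 of the 7 genes were called in this comparison, where 0.888% of all genes were called, 0.524% with a higher and 0.364% with a lower response in cells labelled CASP1. None of the 34 probe sets was called in it, against 0.485% of all probe sets. At an unadjusted p under 0.05, 3 of the 7 passed, and the share of all genes at that threshold is not given here. Without the 4 arrays of replicate 1 the BTG1 value was -0.53 with adjusted p = 0.015, where 4.01% of all genes were called. A batch term for replicate 1 over all 16 arrays gave the same -0.55 with adjusted p = 0.026. Leaving out only replicate 1 of the untreated control cells gave -0.35, and leaving out only that of the treated control cells gave -0.71, neither of them called (adjusted p = 0.63 and 0.22). The call therefore depends on how replicate 1 is treated. The values -0.35 and -0.71 were the ends of the range over 20 ways of leaving out arrays. Replicate 1 was the lowest BTG1 array in each of the 4 groups. The size also moved in settings that kept replicate 1. It reached -0.65 when replicate 3 was dropped from untreated control cells, and -0.74 with the probe set of largest SD. Over the 3 probe sets it ran from -0.74 to -0.36, none called. The cause of these moves was not tested. In prednisolone-treated cells, BTG1 averaged 11.91 ± 0.19 in cells labelled CASP1 and 12.33 ± 0.31 in control cells (SD, n = 4 each), a difference of -0.42 with adjusted p = 0.14. Replicates 2 to 4 lay between 11.88 and 12.11 in cells labelled CASP1 and between 12.45 and 12.50 in control cells, with no overlap (difference -0.49 without replicate 1, adjusted p = 0.00044, where 10.8% of all genes were called lower). The difference was also called without replicate 1 of the treated control cells alone (-0.57, adjusted p = 0.037) and with the mean of the 3 probe sets (-0.55, adjusted p = 0.04). Among single probe sets only the dim one (mean 3.44) was called lower (-0.70, adjusted p = 0.011), where 8.07% of all probe sets were. The 2 brighter ones gave -0.42 and -0.53, not called over all probe sets (adjusted p = 0.15 and 0.089). Over all 16 arrays, -0.42 was called with a batch term for replicate 1 (adjusted p = 0.0022) and with replicate number as a block (adjusted p = 0.0038).

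NSD2 was the member that fell. Its signal was 9.49, 8.97, 9.37 and 9.33 in prednisolone-treated cells labelled CASP1 and 9.74, 9.37, 9.50 and 9.47 in the same cells untreated. It was 9.42, 9.16, 9.19 and 9.07 in treated control cells and 9.80, 9.53, 9.59 and 9.67 in untreated control cells. In control cells every treated array was below every untreated array, whereas in cells labelled CASP1 the groups overlapped. Replicate 1 was the highest array in each of the 4 groups, opposite to BTG1. The fall in control cells was -0.44 (SE 0.12, 1.35-fold, n = 4, adjusted p = 0.015), and -0.46 without replicate 1 (adjusted p = 0.0039, where 13.1% of all genes fell). In cells labelled CASP1 the difference was -0.22 with a 95% interval of -0.47 to 0.02 (adjusted p = 0.34), and the difference between the 2 responses was 0.21 (adjusted p = 0.74). The call in control cells was lost without replicate 4 of the treated control cells alone (-0.39, adjusted p = 0.057), and without the 4 arrays of replicate 3 (-0.45, adjusted p = 0.11) or 4 (-0.38, adjusted p = 0.18).

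The 12 NSD2 probe sets, which share 1 gene, were all lower with prednisolone in mean signal in both lines. In control cells 7 of the 12 were called lower, with differences from -0.70 to -0.17 over the 12, against 7.08% of all probe sets. In cells labelled CASP1 0 of 12 were called in limma, with differences from -0.48 to -0.11, against 2.84% of all probe sets called lower. The probe sets disagreed between the lines under prednisolone, where 9 of 12 were higher and 3 lower in cells labelled CASP1, and 2 dim ones were called higher (0.60 and 0.42, adjusted p = 0.047 and 0.035, where 6.53% of all probe sets were called higher).

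NCOA1, the p160 coactivator also known as SRC-1, was highest in treated control cells. Its signal was 6.36, 6.41, 6.56 and 6.61 in prednisolone-treated cells labelled CASP1 and 6.37, 6.36, 6.29 and 6.50 in the same cells untreated. It was 7.08, 7.04, 6.96 and 7.22 in treated control cells and 6.57, 6.46, 6.83 and 6.86 in untreated control cells. The treated control arrays lay above all other 12 arrays, and the treated and untreated arrays of cells labelled CASP1 overlapped. The rise in control cells was 0.39 (SE 0.10, 1.31-fold, n = 4, adjusted p = 0.011), while in cells labelled CASP1 the difference was 0.11 with a 95% interval of -0.11 to 0.32 (adjusted p = 0.67). The difference between these responses was -0.29 (95% interval -0.59 to 0.01, adjusted p = 0.50), so the lines were not shown to differ in their NCOA1 response.

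Between the lines NCOA1 was the member with the largest difference. Under prednisolone it averaged 6.49 ± 0.12 in cells labelled CASP1 and 7.07 ± 0.11 in control cells (SD, n = 4 each), a difference of -0.59 (SE 0.10, 1.5-fold, adjusted p = 0.00052). All 6 NCOA1 probe sets were called lower there, by -1.02 to -0.59, against 8.07% of all probe sets. Untreated, it averaged 6.38 ± 0.086 in cells labelled CASP1 and 6.68 ± 0.19 in control cells, a difference of -0.30 that missed the threshold (adjusted p = 0.055). It passed in several other settings, among them without untreated control replicate 2 (-0.37, adjusted p = 0.024), without prednisolone-treated CASP1-labelled replicate 1 (adjusted p = 0.039) and with the mean of the 6 probe sets (-0.37, adjusted p = 0.029). All 6 probe sets were lower in mean signal and 2 were called, where 7.03% of all probe sets were called lower. In control cells all 6 were higher with prednisolone and 3 were called, where 5.23% of all probe sets were called higher. The call of the brightest ended without the 4 arrays of replicate 2 (0.33, adjusted p = 0.12). Without replicate 1 the brightest gave 0.36 for prednisolone in control cells (adjusted p = 0.034) and -0.55 between the treated lines (adjusted p = 0.0029), both called.

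**Figure D2:**
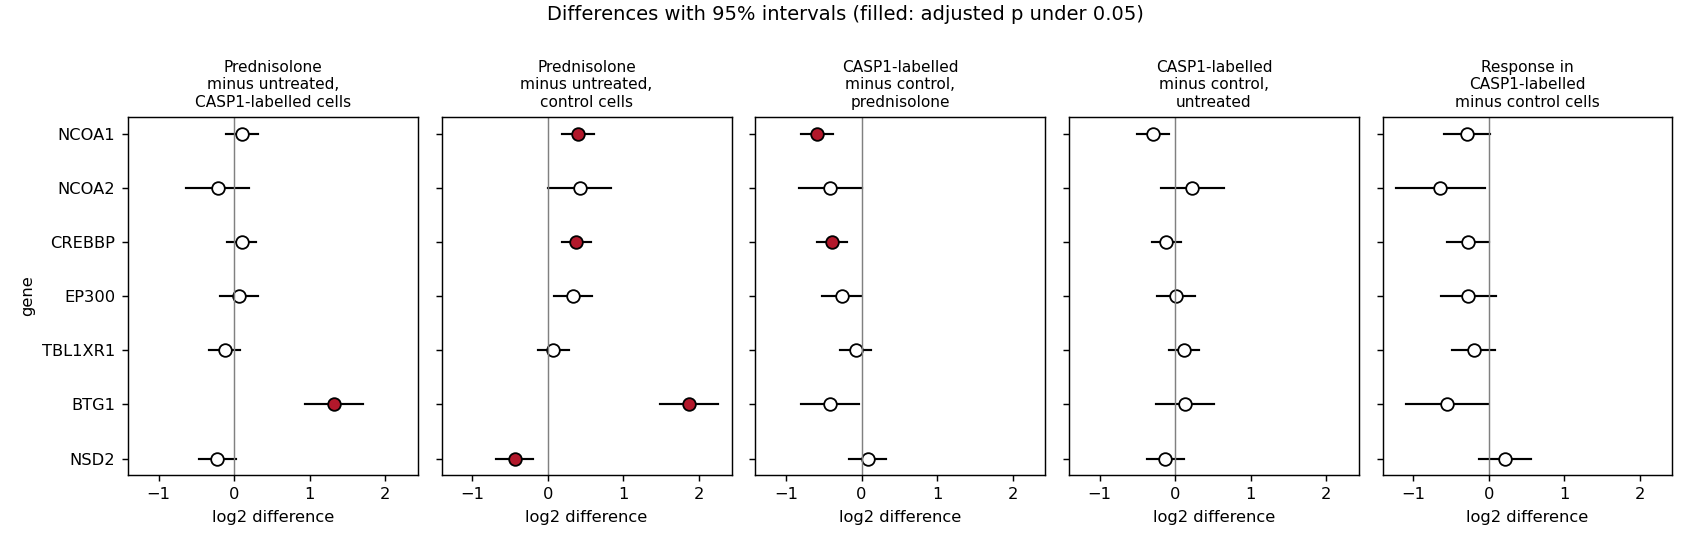
Log2 difference of each measured gene (points) with its 95% interval (lines) in 5 comparisons, where filled points passed an adjusted p under 0.05 over all 18132 genes. BTG1 lies at 1.32 and 1.87 in the 2 prednisolone panels, NCOA1 and CREBBP lie below 0 between the lines under prednisolone, and 0 points are filled in the last 2 panels.

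NCOA2, known as GRIP1 or TIF2, gave little signal. Its brightest probe set had array values from 3.75 to 4.88, near or below the array medians of 4.85 to 4.93, and its 2 other probe sets were dimmer still, with means of 3.61 and 3.43. The means were 4.16 ± 0.38 in treated and 4.38 ± 0.27 in untreated cells labelled CASP1, and 4.58 ± 0.24 in treated and 4.15 ± 0.37 in untreated control cells (SD, n = 4 each). All 4 groups overlapped, and no comparison of NCOA2 was called over the 16 arrays. Between the treated lines it passed without replicate 4 of cells labelled CASP1 (-0.59, adjusted p = 0.045). The difference for prednisolone in control cells, 0.42 (adjusted p = 0.20), was 0.19 without the 4 arrays of replicate 1, whose 2 control arrays alone differed by 1.13.

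The acetyltransferases CREBBP and EP300 are close relatives with similar enzymatic activity. CREBBP signal was 9.47, 9.13, 9.54 and 9.51 in prednisolone-treated cells labelled CASP1 and 9.41, 9.28, 9.26 and 9.30 in the same cells untreated. It was 9.73, 9.85, 9.81 and 9.84 in treated control cells and 9.29, 9.49, 9.52 and 9.42 in untreated control cells. As with NCOA1, the treated control arrays were the 4 highest of the 16. CREBBP rose in control cells by 0.38 (SE 0.092, 1.30-fold, n = 4, adjusted p = 0.0085), and the difference in cells labelled CASP1 was 0.10 with a 95% interval of -0.09 to 0.29 (adjusted p = 0.66). Under prednisolone CREBBP was lower in cells labelled CASP1 by -0.39 (SE 0.092, 1.31-fold, adjusted p = 0.0065), and untreated the lines differed by -0.12 (adjusted p = 0.51). The difference between the 2 responses was -0.28 (95% interval -0.55 to -0.00147, adjusted p = 0.48).

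The CREBBP calls held without replicate 1, at 0.36 (adjusted p = 0.014) for prednisolone in control cells and -0.44 (adjusted p = 0.0043) between the treated lines. The first was lost without the 4 arrays of replicate 3 (0.40, adjusted p = 0.055) or 4 (0.36, adjusted p = 0.10), and the second without those of replicate 2 (-0.28, adjusted p = 0.081) or 4 (-0.41, adjusted p = 0.052). Replicate 2 of treated cells labelled CASP1 lay apart at 9.13. Without it alone, the treated lines differed by -0.30 (adjusted p = 0.017). The difference for prednisolone in cells labelled CASP1 was then 0.19 (adjusted p = 0.19), and that between the responses -0.18 (adjusted p = 0.59). The 5 CREBBP probe sets were all higher with prednisolone in control cells, from 0.09 to 0.38. Only the brightest was called, where 5.23% of all probe sets were called higher. Between the treated lines all 5 were lower in cells labelled CASP1, from -0.57 to -0.11. There 2 of the 5 were called, against 8.07% of all probe sets called lower.

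EP300 had 1 probe set. Its means were 7.69 ± 0.20 in treated and 7.63 ± 0.15 in untreated cells labelled CASP1, and 7.96 ± 0.21 in treated and 7.62 ± 0.14 in untreated control cells (SD, n = 4 each). The difference for prednisolone in control cells, 0.33 (95% interval 0.08 to 0.59), missed the threshold over all genes (adjusted p = 0.080) and passed it after a further quantile normalization (0.38, adjusted p = 0.031), centred on the 75th percentile (0.35, adjusted p = 0.048), fitted with a batch term for replicate 1 (adjusted p = 0.043), or without replicate 4 of the treated control cells (0.42, adjusted p = 0.032). In cells labelled CASP1 the difference was 0.06 (95% interval -0.19 to 0.32). The lines differed by 0.01 untreated (95% interval -0.25 to 0.26) and by -0.26 under prednisolone (adjusted p = 0.16). Without replicate 1 the difference was 0.29 for prednisolone in control cells (adjusted p = 0.13) and -0.17 between the treated lines (adjusted p = 0.39).

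TBL1XR1, the measured subunit of the NCoR corepressor complex, depended on the probe set. The brightest had signals from 10.80 to 11.20 over all 16 arrays, with overlapping groups and no call in any comparison. Its difference for prednisolone was -0.13 (95% interval -0.33 to 0.07) in cells labelled CASP1 and 0.07 (95% interval -0.13 to 0.27) in control cells. Without replicate 1 these were -0.037 and 0.07. A second probe set of nearly equal brightness (mean 11.05) gave 0.21 in control cells (adjusted p = 0.39). The 2 dimmer ones, with means of 8.62 and 7.48, rose in control cells by 0.45 and 0.48 (adjusted p = 0.007 and 0.0021) and gave 0.07 each in cells labelled CASP1. In control cells 5.23% of all probe sets were called higher. The mean of the 4 probe sets was also called there (0.30, adjusted p = 0.034). Under prednisolone the 2 dimmer ones were lower in cells labelled CASP1 by -0.39 and -0.48 (adjusted p = 0.018 and 0.0025), where the brightest gave -0.08. In that comparison 8.07% of all probe sets were called lower. Which transcripts each probe set detects was not tested.

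**Figure D3:**
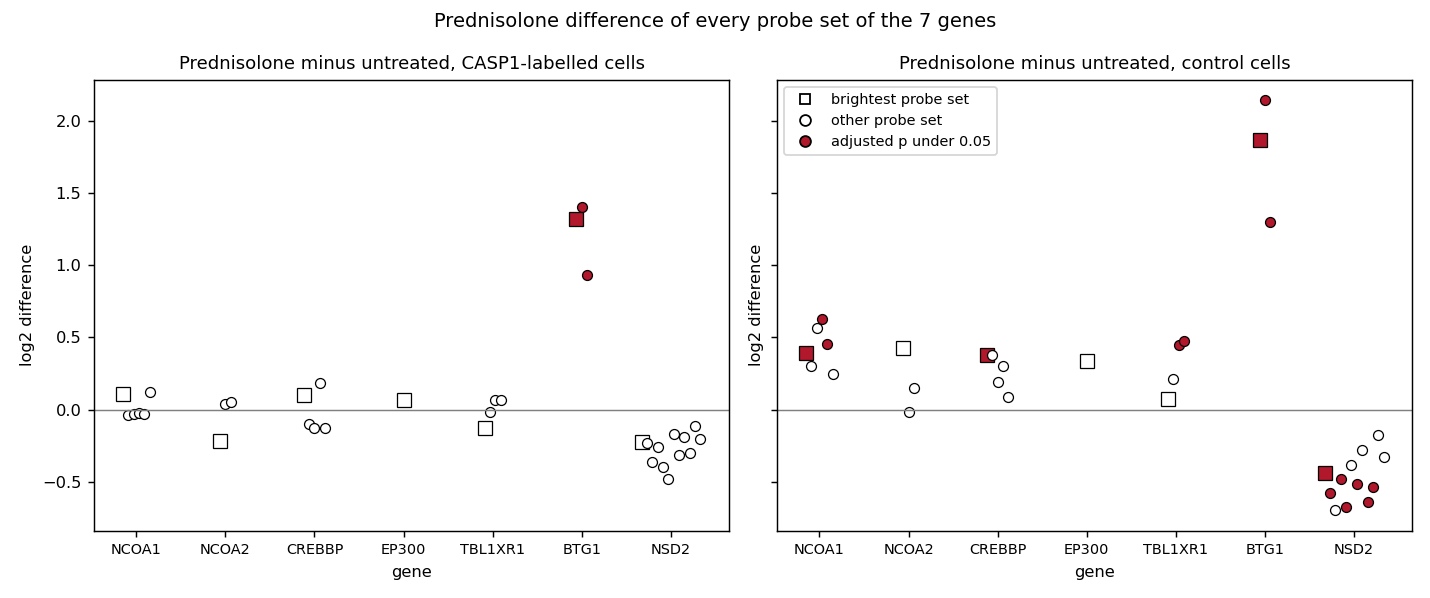
Log2 difference for prednisolone of each of the 34 probe sets of the 7 genes (vertical axis), by gene and ordered within a gene by brightness, with squares for the brightest and filled marks for an adjusted p under 0.05 over all probe sets, in cells labelled CASP1 (left) and control cells (right). All 3 BTG1 probe sets are filled in both panels, 7 of 12 NSD2 probe sets are filled below 0 in control cells, and the 2 dimmer TBL1XR1 probe sets are filled in control cells while the brightest is not.

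The comparison of the lines gave fewer calls among these genes than the comparison of treatments in control cells. Untreated, 0 of the 7 genes were called in limma between cells labelled CASP1 and control cells, against 14.1% of all genes. Of all genes 5.87% were called higher and 8.2% lower. An unadjusted p under 0.05 was reached by 1 of the 7, and the share of all genes at that threshold is not given here. Under prednisolone 2 were called, both lower in cells labelled CASP1, against 16.4% of all genes called, 7.88% higher and 8.52% lower. Of the 7 genes, 6 had a negative difference there, with a median of -0.39, and the median over all genes was 0.04. The treated control cells enter both this comparison and the prednisolone comparison in control cells, so the rises of NCOA1 and CREBBP there and their lower values here share 4 arrays. Untreated, the median over the 7 genes was 0.01.

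The order of the group means was the same for NCOA1 and CREBBP, with treated control cells highest, untreated control cells next, then treated and untreated cells labelled CASP1. For CREBBP the middle groups, at 9.43 ± 0.10 in untreated control cells and 9.41 ± 0.19 in treated cells labelled CASP1, were closer than the spread between arrays. BTG1 ran from 12.33 in treated control cells through 11.91 in treated cells labelled CASP1 to 10.59 in untreated cells labelled CASP1 and 10.46 in untreated control cells, and the last 2 did not differ beyond their spread. NSD2 had the reverse order, with 9.21 in treated control cells and 9.65 in untreated control cells at its ends.

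Across the 16 arrays, which share their groups and replicate numbers, BTG1 and NSD2 correlated at r = -0.83 (-0.60 after each group's mean was taken out). Replicate 1 was the lowest BTG1 array and the highest NSD2 array in each of the 4 groups. Taking out group means leaves this offset in the -0.60. NCOA1 and CREBBP correlated at 0.84 (0.29 within groups) and CREBBP and EP300 at 0.72 (0.43 within groups). Among the 8127 genes with a mean signal of at least 6, the most similar to BTG1 were GLUL, which encodes glutamine synthetase, at r = 0.99, and ASXL2, a chromatin-associated protein of the Polycomb group, at 0.98. NSD2 was most similar to CUEDC2 (0.96) and PACSIN3 (0.94), NCOA1 to ZNF185 (0.95) and WDR26 (0.94), and CREBBP to TCF3 (0.92), an E protein of early B cells, and TP53BP2 (0.92). TBL1XR1 was most similar to ZNF518A (0.93) and ZNF12 (0.89), EP300 to TPP1 (0.85) and NCSTN (0.84), and NCOA2 to PPP2R5A (0.80) and ATMIN (0.72). Within groups, in the order named, the values were 0.86 and 0.84 for BTG1, 0.91 and 0.89 for NSD2, and 0.74 and 0.67 for NCOA1. They were 0.69 and 0.81 for CREBBP, 0.97 and 0.88 for TBL1XR1, 0.72 and 0.71 for EP300, and 0.74 and 0.80 for NCOA2. These values describe 16 arrays and carry no test.

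The partners of these genes were followed in 7 lists, described by counts and medians. For each comparison of 2 groups, up to 3 called genes with the largest differences are named. A gene named for 1 line may therefore have changed in the other line too. Calls that appeared only without replicate 1 are not named. Over all genes, 2.99% rose and 3.35% fell with prednisolone in cells labelled CASP1, and 5.73% rose and 8.43% fell in control cells. Between the lines, 7.88% were higher and 8.52% lower under prednisolone, and 5.87% and 8.2% untreated. Of 22 measured coactivators outside the members, 1 rose and 1 fell with prednisolone in cells labelled CASP1, and 2 rose and 4 fell in control cells. NCOA7, a coactivator of nuclear receptors outside the p160 family, rose by 0.54 in cells labelled CASP1 (adjusted p = 0.0011) and by 1.18 in control cells (2.26-fold, adjusted p = 6.5e-08). Its responses differed by -0.64 (SE 0.13, adjusted p = 0.023). PRMT1, the arginine methyltransferase that binds BTG1, fell by -0.76 in control cells (adjusted p = 0.029), and PPRC1, a relative of PGC-1, by -0.66. CBX3, a heterochromatin protein, fell by -0.32 in cells labelled CASP1 (adjusted p = 0.019). Between the lines 4 of the 22 were lower and 0 higher untreated, among them PPRC1 (-0.94), NCOA5 (-0.55) and the acetyltransferase KAT5 (-0.39), and 1 was higher and 5 lower under prednisolone, with NCOA5 at -0.84 and NCOA7 at -0.77.

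Of 17 measured corepressors, cells labelled CASP1 had 1 riser and 1 faller, and 3 rose and 4 fell in control cells. The paralogous scaffold proteins SIN3A and SIN3B moved oppositely in control cells, with SIN3B at 0.70 (adjusted p = 0.0022) and SIN3A at -0.61 (adjusted p = 0.0002). In cells labelled CASP1, SIN3B rose by 0.52 (adjusted p = 0.037). NRIP1, a ligand-dependent corepressor of nuclear receptors, fell by -0.67 in cells labelled CASP1 and by -0.69 in control cells (adjusted p = 0.025 and 0.0096). Between the lines, LCOR was higher in cells labelled CASP1 by 0.74 untreated and by 0.65 under prednisolone (0.43 without replicate 1), and CTBP2 was lower by -0.71 and -0.88. The median over the corepressors was 0.04 in cells labelled CASP1 and -0.03 in control cells, beside 0.02 and -0.01 over all genes.

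Among 30 Mediator subunits and kinases, 1 rise and 2 falls were called in cells labelled CASP1, and 2 rose and 3 fell in control cells. MED20 fell by -0.60 in cells labelled CASP1 and by -0.79 in control cells (adjusted p = 0.0017 and 3.9e-05), and the kinase CDK19 rose by 0.35 and by 0.62. MED14 fell by -0.48 in cells labelled CASP1 (adjusted p = 0.024), a call that was lost without replicate 1 (-0.32, adjusted p = 0.09). MED13L rose by 0.60 in control cells. Between the treated lines 0 Mediator genes were higher and 4 lower in cells labelled CASP1, with MED22 at -0.58 (-0.39 without replicate 1) and MED13L at -0.55. Between the untreated lines 2 were higher, MED14 at 0.41 and MED15 at 0.32, and 2 lower, and both of the higher calls were lost without replicate 1 (adjusted p = 0.052 and 0.062). Of 22 SWI/SNF genes, cells labelled CASP1 had 1 riser and 2 fallers, and 3 rose and 2 fell in control cells, with BCL7A at 0.55 and 1.09 (adjusted p = 0.0027 and 7.2e-07), and ACTL6A at -0.39 and -0.58. SMARCC1 fell by -0.54 in cells labelled CASP1. Between the treated lines 8 of these 22 were lower and 0 higher in cells labelled CASP1, among them PBRM1 (-0.69), ARID1B (-0.67) and SS18 (-0.47), and the median was -0.17, beside 0.04 over all genes. Untreated, 1 was higher, BCL7A at 0.35, and 3 were lower, with ARID1B at -0.51 and PBRM1 at -0.37.

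**Figure D4:**
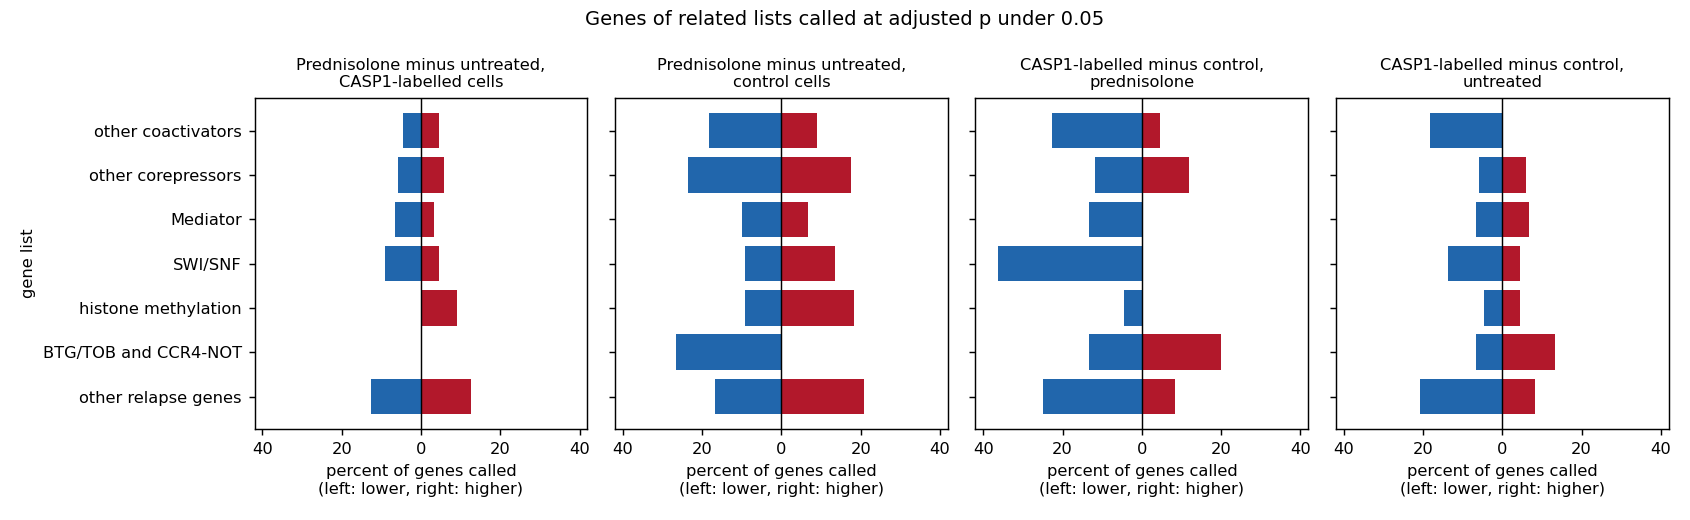
Percent of the measured genes of each of 7 lists called lower (left of 0) and higher (right of 0) at an adjusted p under 0.05, in 4 comparisons. The longest bar is that of the SWI/SNF genes between the treated lines, where 8 of 22 were lower in cells labelled CASP1.

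Of 22 other histone methylation genes, cells labelled CASP1 had 2 risers and 0 fallers, and 4 rose and 2 fell in control cells. The histone demethylase KDM4B rose by 0.74 in cells labelled CASP1 and by 1.22 in control cells (adjusted p = 0.025 and 0.00018), and by 0.84 in control cells without the 4 arrays of replicate 1. DOT1L, a histone methyltransferase, rose by 0.92 in control cells, and EZH2, the Polycomb methyltransferase, fell by -0.60 (adjusted p = 0.0032 and 0.0073). KDM5A rose by 0.34 in cells labelled CASP1. Between the lines KDM4C was the 1 gene called under prednisolone (-0.43), and KDM4B (0.67) and KDM2B (-0.34) were called untreated. Without replicate 1, this list had 1 higher and 4 lower under prednisolone, and 4 higher and 3 lower untreated. Calls over all genes then went from 2974 to 4062 and from 2552 to 3876. Of the 15 measured BTG/TOB and CCR4-NOT genes, 0 were called in cells labelled CASP1, and 0 rose and 4 fell in control cells. Without replicate 1, 1 rose and 4 fell in control cells, where 8.8% of all genes rose and 13.1% fell. BTG3, a relative of BTG1, fell there by -0.73 (adjusted p = 0.0002), with the deadenylase CNOT8 at -0.51 and CNOT9 at -0.27. A positive difference in control cells was seen for 6 of the 15 over all 16 arrays, and none of them passed the test there. Between the lines 3 were higher and 2 lower in cells labelled CASP1 under prednisolone, with BTG3 at 0.44 (0.28 without replicate 1), the deadenylase CNOT6 at -0.45 and CNOT4 at 0.43, whose call was lost without replicate 1 (0.23, adjusted p = 0.069). Untreated, 2 were higher and 1 lower, with CNOT4 at 0.61 and TOB1 at 0.37, and the TOB1 call was lost without replicate 1 (0.33, adjusted p = 0.054).

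Of 24 other genes altered in relapsed or resistant disease, cells labelled CASP1 had 3 risers and 3 fallers, and 5 rose and 4 fell in control cells. NR3C1, the glucocorticoid receptor gene, rose by 0.85 in cells labelled CASP1 and by 1.24 in control cells. MSH6, a mismatch repair gene, fell by -1.02 in control cells (adjusted p = 7e-08), and LEF1, a WNT pathway factor, by -1.18 in cells labelled CASP1 and -1.12 in control cells. IL7R rose by 1.56 in cells labelled CASP1, where its untreated signal was lower (8.12 in untreated cells labelled CASP1 and 9.97 in untreated control cells). Its responses differed by 1.15 (SE 0.12, adjusted p = 8.3e-05), and its difference for prednisolone in control cells is not given here. The widest gap between the lines in this list was in PRPS2, an enzyme of nucleotide synthesis, at 7.02 in untreated cells labelled CASP1 and 3.71 in untreated control cells (difference 3.31, adjusted p = 5.8e-12). The control mean lay below the array medians, and whether it is above background was not tested. ERG and FPGS, the enzyme that traps methotrexate in cells, were lower in treated cells labelled CASP1 by -0.95 and -0.77, and the first was -0.55 without replicate 1. Untreated, ERG was lower by -0.96 (adjusted p = 0.002), and by -0.95 without replicate 1. In this list 2 genes were higher and 5 lower in cells labelled CASP1 untreated, and 2 higher and 6 lower under prednisolone.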

How the data were processed

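Per the submitters' processing notes, the authors summarized the deposited log2 signals per probe set with RMA. The sources used here do not name the software or the version. RMA puts all arrays on one scale, so total RNA per cell was not measured. In these bulk samples, fewer cells of a type and less RNA per cell cannot be told apart. The platform annotation gave the names of probe sets (44988 with 1 gene, 1832 with several, 2473 with none, 102 controls).

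Genes were fitted with limma 3.58.1 under R 4.3.3, as 4 group means over all 16 arrays (12 residual degrees of freedom). Its moderated test, which is two-sided, was adjusted by Benjamini and Hochberg over 18132 genes. The same model over 49293 probe sets gave the probe set results. The model was tested on simulated data. The number of arrays limits the precision. Whether the arrays of a group are separate cultures is not in the labels, and p-values reflect the spread between these arrays alone, which may be technical. Same-numbered arrays were not taken as pairs in the main model, as the replicate numbers are not known to pair arrays. Their deviations did share some structure. Of 24 correlations between them 15 passed 0.1, the lowest was -0.12, and those of replicate 1 were 0.19 to 0.51. Replicate number as a block was therefore among the alternatives.

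The members and lists were chosen with earlier results of these data known. From each list the text names up to 3 called genes with the largest difference per comparison of 2 groups and up to 2 for the difference between responses, and for each member the 2 genes with the highest correlation. Motifs were chosen after the results were seen. Alternatives covered normalization, dim genes, the choice of probe set, replicate terms, the samples in the model, the moderation, and arrays left out.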

Additional observations from a re-analysis of the deposited data

Results flagged for a closer look

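Among 28 sets of 4 arrays (7 genes in 4 groups), 3 had 1 array far from the other 3, and chance alone sets apart about 1 in 20. BTG1 was at 10.27 in replicate 1 of untreated cells labelled CASP1, where the other 3 arrays lay between 10.66 and 10.74, and at 11.86 in replicate 1 of treated control cells, where the others lay between 12.45 and 12.50. CREBBP was at 9.13 in replicate 2 of treated cells labelled CASP1, where the others lay between 9.47 and 9.54. No difference between the 2 prednisolone responses passed the test for any of the 7 genes over all 16 arrays.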

How the results depend on the processing

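Over 9 processing alternatives and 20 ways of leaving out arrays, the BTG1 rise passed the test in every one, at 1.21 to 1.40 in cells labelled CASP1 and 1.67 to 2.15 in control cells, as did the lower NCOA1 between the treated lines (-1.02 to -0.54). With the probe set of largest SD, 2 members (TBL1XR1 and BTG1) were called for prednisolone in control cells, against 4 with the brightest. Untreated, NCOA1 was the 1 member called between the lines without the dimmest 30% of genes, with the mean of a gene's probe sets, with replicate number as a block and with a batch term for replicate 1. BTG1 was the 1 member called for the difference between responses with the replicate block (adjusted p = 0.043) and the batch term. When arrays were left out, members called ranged from 2 to 4 for prednisolone in control cells, 1 to 3 between the treated lines, 0 to 1 between the untreated lines and 0 to 1 for the difference between responses. The probe set of largest SD reversed uncalled differences for prednisolone in cells labelled CASP1 of CREBBP (-0.10, and -0.015 when its probe sets were averaged), NCOA1 (-0.030) and TBL1XR1 (0.070), of TBL1XR1 between the untreated lines (-0.067) and of NSD2 between the treated lines (-0.079). Leaving out arrays reversed uncalled differences between the untreated lines, with ranges of -0.065 to 0.24 for BTG1, -0.067 to 0.093 for EP300 and -0.021 to 0.35 for NCOA2, and that of EP300 for prednisolone in cells labelled CASP1 (-0.023 to 0.15). Over all genes, calls for prednisolone in cells labelled CASP1 numbered 1793 with the batch term and 688 with these 2 groups alone, against 1150, and those for the difference between responses 392 with the batch term and 289 with the block, against 161. With arrays left out they ranged from 399 to 2161 and from 10 to 727, from 1376 to 3969 for prednisolone in control cells (2568 with all arrays), from 1598 to 4062 between the treated lines (2974) and from 1219 to 3876 between the untreated lines (2552). The replicate numbers are not known to pair arrays: 4 of 16 arrays correlated best with their own number in every other group. The cause of these shifts was not tested.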
